A study of Mus musculus with 8 samples.

Results

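The clustered protocadherins were read by 38 of the 55681 gene probes of a mouse Agilent 1-colour array. Members were all gene probes whose gene name in the scanner files starts with Pcdha, Pcdhb, Pcdhga, Pcdhgb, Pcdhgc or Pcdhac followed by a number. They stand for 35 genes: 9 probes for 7 of the 14 genes of the alpha cluster, 22 probes for all 22 genes of the beta cluster, and 7 probes for 6 of the 22 genes of the gamma cluster, with the gene totals taken from RefSeq (GRCm38.p6). All 38 probe names equalled the RefSeq symbol of their accession. In the mm9 coordinates of the scanner files the probes lie on chromosome 18 between 37114742 and 38001437, with alpha first, then beta, then gamma. Exon and UTR annotation of that build was not used here.

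The samples are total RNA of medium spiny neurons, which send the inhibitory output of the striatum, taken from males 4 weeks old. The R6/2 group (4 arrays) was R6/2;Scn4b-Venus, and the control group (4 arrays) was WT;Scn4b-Venus. Both groups carry the Scn4b-Venus reporter, which makes neurons that use the sodium channel subunit gene Scn4b fluoresce, and cells were sorted as Venus-positive and propidium iodide-negative. R6/2 mice, a model of Huntington's disease, carry in addition a transgene of exon 1 of human HTT with an expanded CAG repeat, so they model the fragment and not the full-length protein. The labels do not say whether each array holds a separate animal, so p-values rest on the spread between these samples.

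Clustered protocadherins are cell-surface adhesion proteins of the cadherin superfamily that bind the same isoform on a facing membrane, and neurons use the isoforms they carry to tell their own branches from those of other cells. Each isoform has its own promoter and its own variable exon. In the alpha and gamma clusters that exon is spliced to constant exons common to the whole cluster, while beta genes carry no such constant exons. Each neuron uses only some of the promoters, a choice linked to DNA methylation, CTCF and cohesin, whereas the C-type isoforms of the alpha and gamma clusters are used more uniformly among neurons. The array reads the average over all sorted cells of a sample, so fewer cells using a promoter and less RNA per cell cannot be told apart.

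Levels are log2 of the processed signal relative to each array's 75th percentile, so 0 is the signal of that percentile and negative levels are dimmer. Differences are R6/2 minus control on this log2 scale, and levels of different probes were not compared. A probe counted as measured when 4 or more of the 8 arrays flagged it well above background. By this rule 35 members were measured: all 9 alpha, 19 of 22 beta and all 7 gamma probes. The probe of Pcdhb2 was well above background on 0 of 8 arrays, Pcdhb9 on 1 control and 1 R6/2 array, and Pcdhb5 on 1 control and 2 R6/2 arrays, just outside the rule. Pcdha4 lay just inside, on 1 control and 3 R6/2 arrays. Of the measured members 26 were well above background on all 8 arrays, and no member spot was saturated.

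The arrays differed in how much they could detect. Between 50.1% (control replicate 1) and 78.8% (R6/2 replicate 4) of all probes were well above background, and the lowest level that stood above background was -2.78 on control replicate 1 against -4.31 to -5.56 on the other arrays. The share averaged 66.6% ± 11.5 in control and 76.0% ± 2.00 in R6/2 samples (SD, n = 4 each; exact permutation test, two-sided, p = 0.1143). R6/2 replicate 4 was the sole array on the second slide. All 8 medium spiny neuron markers were well above background on all 8 arrays. All 8 had a negative difference (median -0.64), with a summed level of 735 to 958 times the 75th percentile in control and 542 to 635 times in R6/2 samples. Scn4b, on which the sort rests, was at 5.87 to 6.78 in control and 4.73 to 5.50 in R6/2 samples (difference -1.15 ± 0.29 SE, limma adjusted p = 0.552). The probe of mouse Htt does not check the human transgene.

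No clustered protocadherin differed between R6/2 and control neurons at an adjusted p under 0.05 (limma over 41385 measured probes, Benjamini-Hochberg). The count was 0 of 35 members, against 1 probe (0.00242%) over the whole array, and the lowest adjusted p of a member was 0.634. At an unadjusted p under 0.05, 2 members were higher in R6/2 neurons, Pcdhb10 and Pcdha4, which is 5.71% of the members against 3.97% of all probes. At the same level 0 members were lower, against 3.05% of all probes. Pcdha4 was well above background on 1 control and 3 R6/2 arrays, so it passed the detection rule mainly through the group where it was higher. Of the 26 members well above background on all 8 arrays 1 was higher at that level, against 648 of 26669 such probes. Pcdhb10 was the 1 member whose R6/2 arrays all lay above all control arrays, 2.86% against 2.31% of all probes, and 0 members had all R6/2 arrays below, against 2.26%. These shares are near those of the whole array. Differences were positive for 21 and negative for 14 members (60.0% positive against 55.5% of all probes). The median difference was 0.14 over the members and 0.05 over all probes.

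The precision of 4 arrays a group bounds what this shows. The 95% interval of the difference held 0 for 33 of the 35 members, and 21 of these 33 intervals reached a difference of 1 or -1, a doubling or halving. The intervals were wide because the arrays of a group differed: the median residual SD was 0.53 over the members and 0.48 over all probes.

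**Figure D1:**
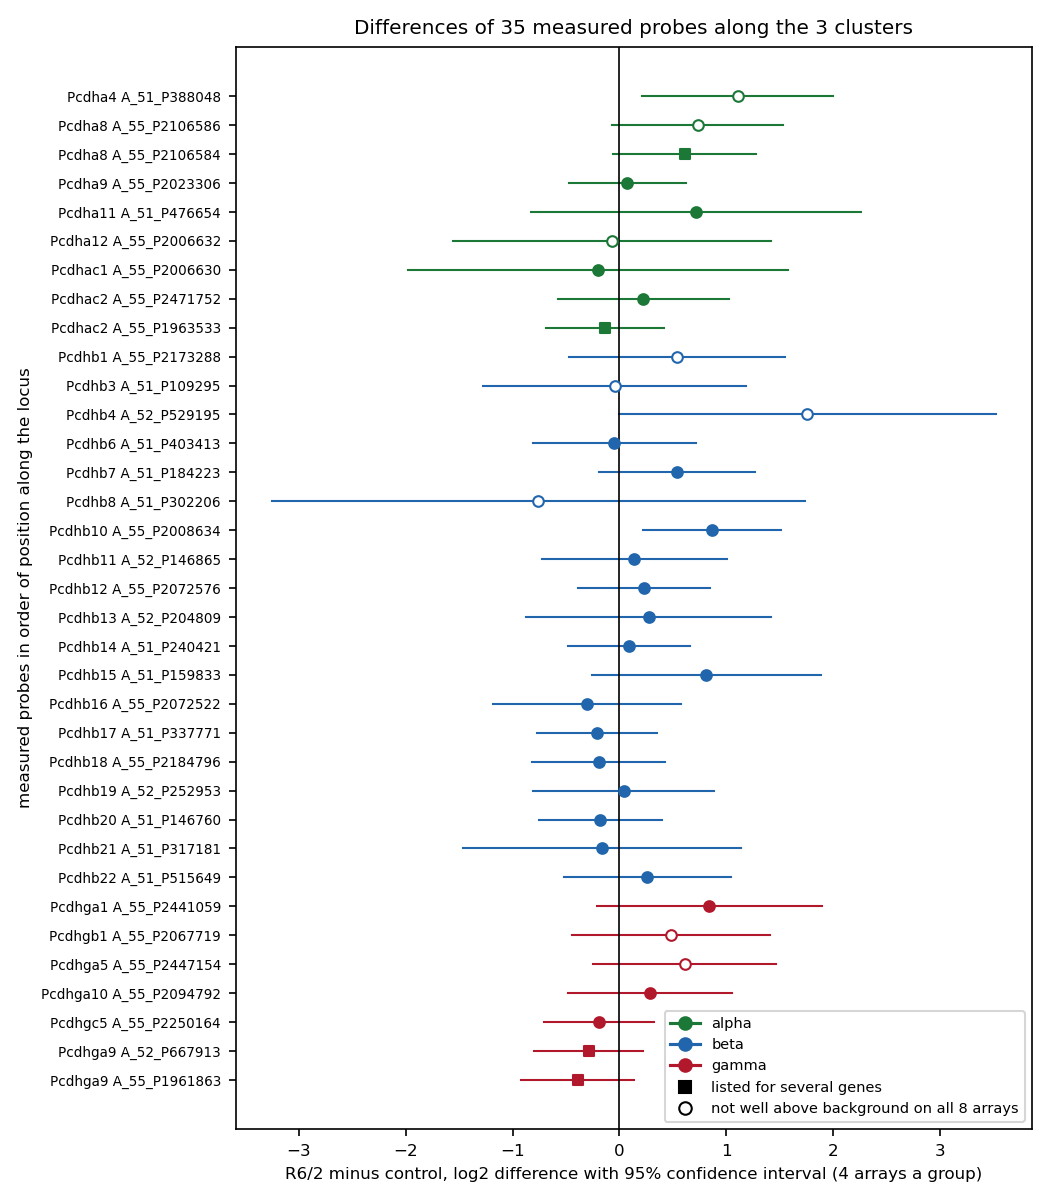
R6/2 minus control difference (log2, horizontal axis) of the 35 measured member probes in their order along the chromosome, with the 95% interval of the limma fit; colour gives the cluster, squares are probes listed for several genes and open circles probes not well above background on all 8 arrays. The intervals of Pcdha4 and Pcdhb10 lie above 0, and the other 33 hold 0.

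In the alpha cluster, 6 of 9 measured probes were higher and 3 lower in R6/2 neurons, and the median difference was 0.23 (range -0.20 to 1.11). The largest difference was that of Pcdha4, the first alpha probe along the chromosome (chr18:37114742-37114801). Its level was -4.87, -5.22, -4.90 and -4.35 in the controls and -4.66, -2.81, -3.88 and -3.55 in the R6/2 samples, each in the order of replicates 1 to 4, as in all values by array that follow. R6/2 replicates 2, 3 and 4 lay above every control and replicate 1 lay among them. The mean was -4.83 ± 0.36 in control and -3.72 ± 0.77 in R6/2 samples (SD, n = 4 each), a difference of 1.11 ± 0.39 SE with limma adjusted p = 0.664. Only 1 control array detected this probe well above background, so the control level is near the limit of the assay and the probe passed the detection rule mainly through the group where it was higher.

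Pcdha8 was read by 2 probes whose starts lie 209 bases apart. The one listed for Pcdha8 alone (chr18:37153996-37154055) was at -4.70, -3.68, -5.09 and -4.96 in control and -3.56, -4.0, -4.36 and -3.58 in R6/2 samples. The one listed for Pcdha4, Pcdha7 and Pcdha8 together (chr18:37154205-37154264) was at 0.82, -0.19, 0.76 and 0.97 in control and 1.49, 0.88, 1.27 and 1.18 in R6/2 samples. Both differences were positive, 0.73 ± 0.35 and 0.61 ± 0.29 SE (limma adjusted p = 0.733 and 0.735), and in both the groups overlapped. Control replicate 2 was the highest control at the first probe and the lowest at the second, so the 2 probes did not order the control arrays alike. The first was well above background on 1 control array and on all 4 R6/2 arrays, the second on all 8.

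Pcdha11 was at -0.16, -2.63, -3.52 and -2.56 in control and -1.80, -1.34, -2.12 and -0.72 in R6/2 samples. Control replicate 1 was the highest of all 8 arrays, while the other 3 controls were the 3 lowest. The difference was 0.72 ± 0.68 SE (limma adjusted p = 0.856), and it was 1.41 without control replicate 1. The other 2 alpha isoform probes, Pcdha9 and Pcdha12, had differences of 0.08 and -0.07.

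The C-type alpha isoforms, whose promoters are used more evenly among neurons, showed no shared direction. Pcdhac1 (chr18:37249950-37250009) was at 0.79, -1.95, -0.10 and -0.15 in control and -2.13, 0.40, -1.31 and 0.84 in R6/2 samples. It spread almost equally in both groups, over 2.74 log2 units in control and 2.97 in R6/2 samples, and all 8 values were well above background. Its difference was -0.20 ± 0.78 SE (limma adjusted p = 0.971).

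The Pcdhac2 probe that reads that gene alone was at -1.84, -2.38, -1.49 and -1.24 in control and -2.26, -1.59, -1.23 and -0.97 in R6/2 samples, a difference of 0.23 ± 0.35 SE (limma adjusted p = 0.920). The other Pcdhac2 probe, at the downstream end of the alpha cluster (chr18:37347235-37347294), is listed in the scanner files for Pcdha4, Pcdha9, Pcdhac1 and Pcdhac2 and so sums alpha transcripts of several promoters. It was at 3.13, 3.82, 3.25 and 3.35 in control and 3.30, 3.15, 3.65 and 2.93 in R6/2 samples. The groups overlapped, with a difference of -0.13 ± 0.24 SE, a 95% interval of -0.68 to 0.42 and limma adjusted p = 0.932.

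**Figure D2:**
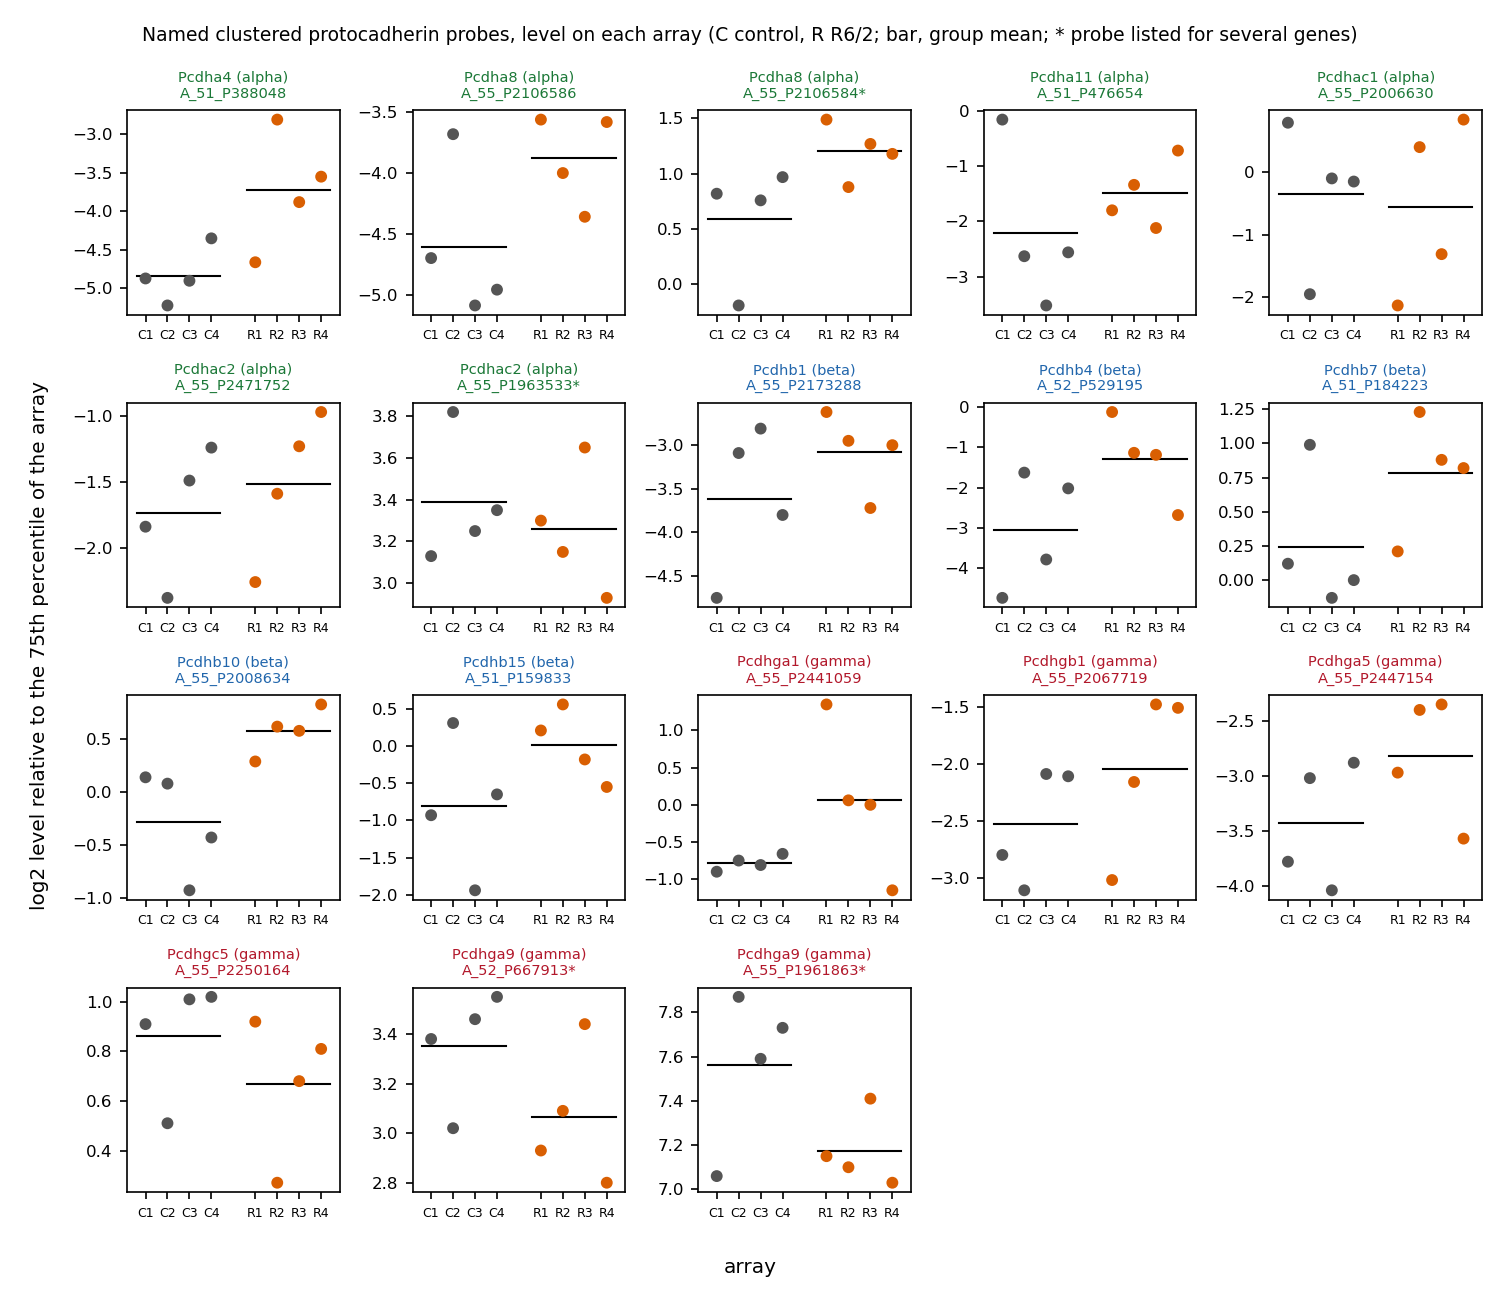
Log2 level relative to the array's 75th percentile for the member probes described one by one, with 1 point per array (C control, R R6/2, 4 arrays each), a bar at each group's mean, and * for a probe listed for several genes; each panel has its own axis range. Pcdhb10 is the probe whose groups do not overlap, and Pcdhac1 spreads over 2.74 log2 units in control and 2.97 in R6/2 samples.

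The beta cluster, whose genes each encode a whole protein without shared constant exons, centred near 0. Of its 19 measured probes 11 had a positive and 8 a negative difference, the median was 0.09, and 13 of the 19 lay between -0.31 and 0.31. Pcdhb10 (chr18:37574021-37574080) was at 0.14, 0.08, -0.93 and -0.43 in control and 0.29, 0.62, 0.58 and 0.83 in R6/2 samples. Every R6/2 array lay above every control array, with the closest pair being R6/2 replicate 1 and control replicate 1. The mean was -0.29 ± 0.50 in control and 0.58 ± 0.22 in R6/2 samples (SD, n = 4 each). The difference of 0.87 ± 0.28 SE (95% interval 0.22 to 1.51) is a 1.83-fold higher level, with limma adjusted p = 0.634. All 8 arrays detected this probe well above background.

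Pcdhb4 had the largest difference of any member. It was at -4.73, -1.63, -3.78 and -2.02 in control and -0.13, -1.14, -1.19 and -2.68 in R6/2 samples. R6/2 replicates 1, 2 and 3 lay above every control, while R6/2 replicate 4 lay between the higher pair and the lower pair of controls. Its difference was 1.76 ± 0.77 SE (95% interval -0.01 to 3.53, limma adjusted p = 0.708), and control replicate 1 was the 1 array on which it was not well above background.

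Pcdhb15 was at -0.93, 0.31, -1.94 and -0.65 in control and 0.21, 0.56, -0.18 and -0.55 in R6/2 samples (difference 0.82 ± 0.47 SE, limma adjusted p = 0.770). Pcdhb7 was at 0.12, 0.99, -0.13 and 0.00 in control and 0.21, 1.23, 0.88 and 0.82 in R6/2 samples (difference 0.54 ± 0.32 SE, limma adjusted p = 0.777). In both genes control replicate 2 was the highest control and stood among the R6/2 arrays. Pcdhb1, the first beta gene along the chromosome, was at -4.75, -3.09, -2.81 and -3.80 in control and -2.62, -2.95, -3.72 and -3.0 in R6/2 samples, with a difference of 0.54 ± 0.44 SE (limma adjusted p = 0.831).

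The other 14 measured beta probes had differences of -0.76 to 0.28, 6 positive and 8 negative. The most negative of any member was Pcdhb8, named after its values were seen, at -0.76 with a 95% interval of -3.26 to 1.74. It was well above background on 2 control and 3 R6/2 arrays, and its R6/2 arrays spread over 5.47 log2 units.

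In the gamma cluster 4 of 7 probes were higher and 3 lower in R6/2 neurons, with a median difference of 0.29. By position of the probes, the 4 most upstream, Pcdhga1, Pcdhgb1, Pcdhga5 and Pcdhga10, were positive. The 3 most downstream, Pcdhgc5 and both probes named Pcdhga9, were negative. Both probes named Pcdhga9 are also listed for Pcdhga5, and the last of them for Pcdhga1, so the split does not order the genes. No test was made of this split, which was seen in these data.

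Pcdhga1 (chr18:37823813-37823872), the first gamma probe, was at -0.90, -0.75, -0.81 and -0.66 in control and 1.35, 0.06, -0.00 and -1.15 in R6/2 samples. The controls lay within 0.23 of each other, whereas the R6/2 arrays spread over 2.50, with 3 above and 1 below all controls. The difference was 0.84 ± 0.46 SE (limma adjusted p = 0.756). Pcdhga5 was at -3.78, -3.02, -4.04 and -2.88 in control and -2.97, -2.40, -2.35 and -3.57 in R6/2 samples, a difference of 0.61 ± 0.38 SE with limma adjusted p = 0.783. Pcdhgb1 was at -2.80, -3.11, -2.09 and -2.11 in control and -3.02, -2.16, -1.48 and -1.51 in R6/2 samples, a difference of 0.48 ± 0.41 SE with limma adjusted p = 0.835. In both genes R6/2 arrays stood above and among the controls, and Pcdhga5 was well above background on 2 of 4 control arrays.

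Pcdhgc5, a C-type isoform, was at 0.91, 0.51, 1.01 and 1.02 in control and 0.92, 0.27, 0.68 and 0.81 in R6/2 samples (difference -0.19 ± 0.23 SE, limma adjusted p = 0.888). The probes named Pcdhga9 sum several gamma transcripts. The one listed for Pcdhga5, Pcdhga6 and Pcdhga9 was at 3.38, 3.02, 3.46 and 3.55 in control and 2.93, 3.09, 3.44 and 2.80 in R6/2 samples (difference -0.29 ± 0.22 SE, limma adjusted p = 0.818). The one at the end of the cluster (chr18:38001378-38001437), listed for Pcdhga1, Pcdhga5, Pcdhga6 and Pcdhga9, was at 7.06, 7.87, 7.59 and 7.73 in control and 7.15, 7.10, 7.41 and 7.03 in R6/2 samples. Control replicate 1 stood among the R6/2 arrays and the other 3 controls above all of them. The difference was -0.39 ± 0.23 SE (95% interval -0.92 to 0.14, limma adjusted p = 0.774).

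Probes that read several genes and probes that read 1 gene differed in spread. The 4 probes listed for several genes had a median residual SD of 0.29, against 0.57 for the 31 measured probes listed for 1 gene. Their median differences were -0.21 (1 positive, 3 negative) and 0.23 (20 positive, 11 negative). All 4 several-gene probes were well above background on all 8 arrays. Over the whole array, probes of any kind well above background on all 8 arrays had a median residual SD of 0.39, against 0.48 for all measured probes. The part of detection in the smaller spread was not tested.

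For the 26 members well above background on all 8 arrays the median difference was 0.08, against -0.01 for the 26669 such probes of the array. By cluster it was 0.15 over 6 alpha probes, 0.09 over 15 beta probes, the same as over all 19, and -0.19 over 5 gamma probes. The 9 measured members that missed this on at least 1 array had a median of 0.54. Of these 9, 8 were not well above background on control replicate 1, and 4 on that array alone. The gamma median was therefore positive over all 7 probes and negative over the 5 detected on every array.

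Each array was then described by the median of its members' levels, each probe centred on its own mean. For the alpha cluster this was -0.07, -0.75, -0.22 and -0.07 in control and 0.05, 0.03, 0.33 and 0.65 in R6/2 samples. The 2 groups did not overlap for alpha. These alpha medians include Pcdha4, well above background on 1 control and 3 R6/2 arrays. They also include the single-gene Pcdha8 probe, well above background on 1 control and 4 R6/2 arrays. Both passed the detection rule mainly through the group where they were higher, and the part of this in the separation was not tested. Over the 7 alpha probes listed for 1 gene the groups overlapped, with control replicate 1 at 0.08 and R6/2 replicate 3 at 0.04. Leaving out R6/2 replicate 4 moved the median alpha difference from 0.23 to 0.04. For the beta cluster the medians were 0.02, 0.11, -0.08 and 0.18 in control and -0.03, 0.20, 0.35 and 0.11 in R6/2 samples. For the gamma cluster they were -0.31, -0.26, 0.22 and 0.24 in control and -0.22, 0.12, 0.35 and -0.34 in R6/2 samples. Both overlapped. The beta difference of 0.09 became -0.03 without control replicate 2 and -0.02 without R6/2 replicate 3, 0.25 without control replicate 4, 0.24 without R6/2 replicate 1 and 0.20 without R6/2 replicate 2. The gamma difference of 0.29 became 0.04 without control replicate 2 and 0.13 without R6/2 replicate 3. The alpha difference became 0.13 without R6/2 replicate 3, 0.43 without control replicate 1, 0.39 without control replicate 4 and 0.47 without R6/2 replicate 1. All 3 cluster medians therefore rest on single arrays in size, and that of beta also in sign.

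**Figure D3:**
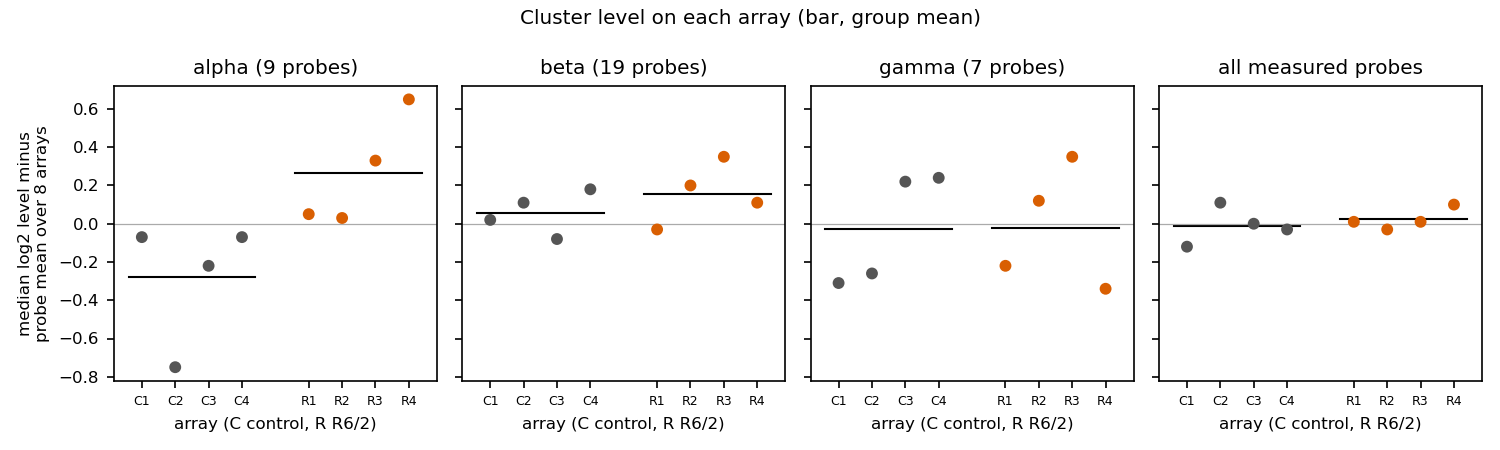
Median over the measured probes of a cluster of the log2 level centred on each probe's own mean, 1 point per array, for the alpha (9 probes), beta (19) and gamma (7) clusters and all measured probes of the array. The alpha points run from -0.75 to -0.07 in control and 0.03 to 0.65 in R6/2 samples, and the beta and gamma groups overlap. The alpha points include the Pcdha4 probe and the single-gene Pcdha8 probe, each well above background on only 1 control array.

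The same interval holds 10 probes with other names, of which 7 were measured, and some lie close to a member. They were looked at after the members' values were seen. A probe for the transcript ENSMUST00000097612 starts 128 bases from the Pcdha11 probe and was at 0.23, -3.29, -3.83 and -3.61 in control and -2.20, -1.25, -3.42 and -1.58 in R6/2 samples. Here too control replicate 1 was the highest of the 8 arrays and the other controls were low, so both probes put that array apart at this position. A probe without a gene name 250 bases from the several-gene Pcdha8 probe had a difference of 1.15 ± 0.61 SE (limma adjusted p = 0.749), against 0.61 for the member. The probe TC1627912 lies 272 bases from the Pcdhac1 probe and was at -4.82, -3.64, -3.55 and -4.43 in control and -4.20, -3.64, -3.19 and -3.97 in R6/2 samples. Control replicate 1, the highest control at Pcdhac1, was the lowest of the 8 arrays at this probe, while R6/2 replicate 1 was the lowest R6/2 array at both. The control replicate 1 value lies below -2.78, the lowest level well above background on that array, so TC1627912 was not detected there.

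**Figure D4:**
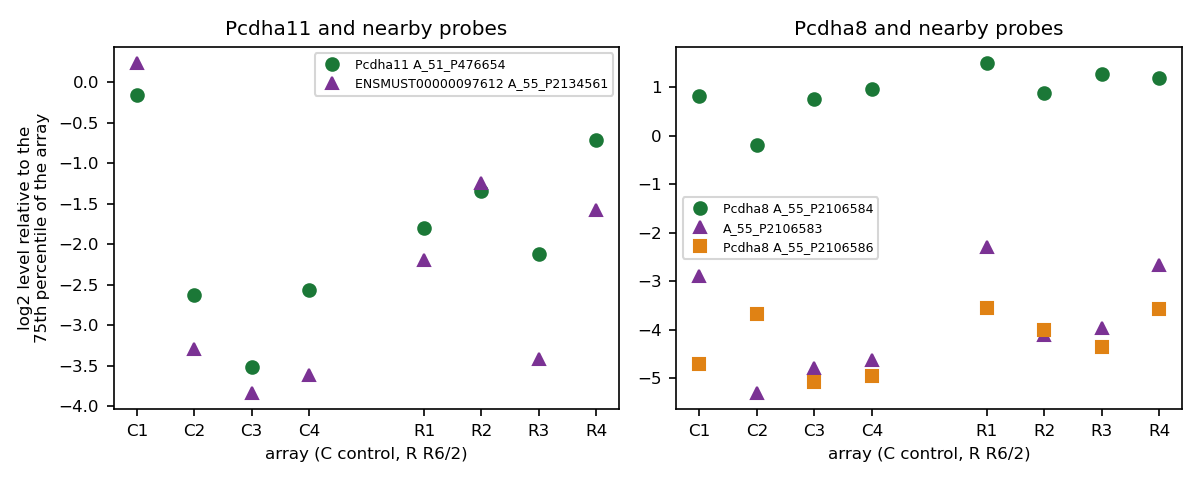
Log2 level relative to the array's 75th percentile on each array (C control, R R6/2), for the Pcdha11 probe with its neighbour and for both Pcdha8 probes with the unnamed probe beside them. Both probes at Pcdha11 are highest on control replicate 1, and the probes at Pcdha8 order the control arrays differently.

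Protocadherins outside the clusters are related adhesion genes that lie singly in the genome, and all 13 listed genes were measured. Their median difference was 0.23, with 8 positive and 5 negative, and 0 passed the threshold. Each gene here and in the lists below was counted by its brightest measured probe. Pcdh9 counted at 0.18, but its other probes ran from -1.62 to -0.98. Other probes ran from -0.55 to 0.002 for Pcdh11x (counted at 0.30) and from -1.17 to 0.06 for Pcdh15 (counted at -0.003). Those of Pcdh1, Pcdh7 and Pcdh10 had the sign of the counted probe. Pcdh20 was at -1.88, -3.93, -3.26 and -2.36 in control and -1.15, -0.74, -0.37 and -0.70 in R6/2 samples, a difference of 2.12 ± 0.44 SE with limma adjusted p = 0.452. Pcdh19 was at -0.81, -0.69, -1.85 and -1.33 in control and 0.11, 0.30, -0.54 and -0.11 in R6/2 samples, a difference of 1.11 ± 0.32 SE with limma adjusted p = 0.574. For both genes all R6/2 arrays lay above all control arrays, 2 of 13 genes against 2.31% of all probes. Pcdh8 had a difference of 1.04 ± 0.58 SE with overlapping groups.

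All 29 listed genes that act on promoter choice were measured, with a median difference of -0.10 (12 positive, 17 negative) and 0 past the threshold. Ctcf, whose protein binds the promoters and the distal enhancers, had a difference of 0.00 ± 0.29 SE, and the cohesin subunit gene Rad21 one of 0.01 ± 0.20. Smchd1, which represses clustered protocadherin promoters, had -0.20 ± 0.20 at its brighter probe and 0.20 at another. The DNA methyltransferase gene Dnmt3b had 0.68 ± 0.33 at its brighter probe and -0.19 at another, so for both genes the probes disagreed in sign. The zinc-finger gene Wiz was lower at an unadjusted p under 0.05 (-0.49 ± 0.20, limma adjusted p = 0.692), and the cohesin subunit gene Stag2 had 0.44 ± 0.19 (limma adjusted p = 0.708). Wiz was the 1 gene of 29 lower at that level, against 3.05% of all probes, and 0 were higher.

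Of the genes for binding partners and downstream signalling 25 of 26 were measured, with a median of -0.10 (9 positive, 16 negative) and 0 past the threshold. The WAVE complex genes Nckap1 (-0.54) and Cyfip2 (-0.50) and the kinase gene Prkca (-0.50) were lower at an unadjusted p under 0.05, with limma adjusted p of 0.688, 0.689 and 0.704. These were 3 of the 25 genes, against 3.05% of all probes lower at that level, and 0 were higher. Another probe had -0.55 for Nckap1 and -0.21 for Prkca. The other listed WAVE complex genes were not lower at that level: Wasf1 (-0.24), Cyfip1 (-0.17), Brk1 (-0.13), Abi1 (-0.09) and Abi2 (0.09, and -0.67 at another probe). A further list held classical cadherin and catenin genes together with Cdh13, Celsr1, Celsr2 and Celsr3. Of its genes 17 of 18 were measured, with a median of -0.14 (3 positive, 14 negative) and 0 past the threshold. Other probes ran from -0.62 to 1.89 for Ctnnd1 (counted at -0.10) and from -0.15 to 0.50 for Cdh8 (counted at -0.23). Cdh2 (-0.05) had 0.27 at another probe, and Celsr2 (-0.30) had 0.01. Those of Cdh4, Cdh11, Cdh13, Ctnna2 and Ctnnd2 had the sign of the counted probe. Cdh12 was higher (1.21 ± 0.28, limma adjusted p = 0.549) and Cdh4 lower (-1.06 ± 0.42, limma adjusted p = 0.691) at an unadjusted p under 0.05, and Cdh10 had 1.27 ± 0.56. At that level 1 of these 17 genes was higher and 1 lower, against 3.97% and 3.05% of all probes.

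Markers of other cell types were read on the same arrays, since other cells of the striatum also use protocadherin promoters. Summed levels were 7.39 to 60.2 in control and 6.44 to 15.0 in R6/2 samples for 7 oligodendrocyte genes, with control replicate 2 the highest. They were 1.74 to 4.12 and 2.21 to 4.27 for 7 astrocyte genes, 20.3 to 31.8 and 25.9 to 32.4 for 6 microglia genes, and 5.76 to 11.6 and 9.63 to 12.2 for 6 neuroblast genes. They were 1.24 to 1.64 and 0.841 to 1.33 for 3 oligodendrocyte precursor genes (Olig2, Sox10 and Cspg4), and 0.643 to 0.777 and 0.566 to 1.15 for the cortical neuron genes Tbr1 and Emx1. For 6 interneuron genes they were 2.64 to 5.73 and 2.91 to 12.8, with Pvalb at its highest, 3.31, on R6/2 replicate 2. A sum rests mainly on its brightest probes, so sums do not compare 1 cell type with another. Among microglia genes Csf1r had mean log2 levels of 4.46 in control and 4.62 in R6/2 samples. The next, Aif1, had 1.23 and -0.33, and C1qa had -4.30 and -3.97. The defining markers Gja1 (astrocytes), P2ry12 (microglia), Pdgfra and Olig1 (oligodendrocyte precursors), Chat (cholinergic interneurons), and Slc17a7 and Neurod6 (cortical neurons) were not measured by the rule above. Of 44 measured markers of other cells 1 (2.27%, against 3.97% of all probes) was higher at an unadjusted p under 0.05, the neuroblast marker Dcx (1.18 ± 0.26 SE, limma adjusted p = 0.485), and 0 were lower. Of the 8 medium spiny neuron markers 5 (62.5%, against 3.05% of all probes) were lower at that level. The part of other cells in the protocadherin values was not tested.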

How the data were processed

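RNA of 8 sorted samples (4 control, 4 R6/2; Cy3) was measured on Agilent arrays read with Feature Extraction 10.7.3.1, per the file headers. The deposited intensity is that software's processed signal (background-subtracted); the authors' deposited log2 table holds normalized processed signal, whose median offset from log2 processed signal came within 0.0072 of each array's 75th percentile, and its deposited p-values come from an unpaired t-test with Benjamini-Hochberg adjustment, per the file headers. That table was used for an alternative only. Per the labels' protocols about 4-20 ng of RNA was extracted per sample. Here log2 processed signal minus each array's 75th percentile was averaged per probe and fitted with limma 3.58.1 (R 4.3.3), R6/2 against control, over the 41385 probes well above background on at least 4 arrays. P-values were adjusted over all of them (Benjamini-Hochberg), with a threshold of 0.05, and the script was tested on simulated data. A 95% interval is that of the difference between the group means, built from the spread between arrays, and 4 arrays a group limit the precision. Probe names were updated through RefSeq accessions.

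The members, gene lists and tests were chosen with earlier results of these data known. Probes described one by one were, in each cluster, the 5 with the smallest p-value, probes whose groups do not overlap and all C-type isoforms, and in each other list the 3 genes with the smallest p-value, a gene taken by its brightest measured probe. Older and current symbols of a gene were counted once. Ctcf, Rad21 and Smchd1 were named besides. On R6/2 replicate 3, 1 garbled line was left out. Same-numbered samples were checked for pairing, and their deviations correlated by -0.04 to 0.02, so the numbers do not pair them. Alternatives were the background correction, scaling, filter, probe choice, deposited values, test, weights, blocks and leaving out each array.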

Additional observations from a re-analysis of the deposited data

Results flagged for a closer look

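Among 116 groups of 4 arrays, 6 held 1 array far from the other 3 relative to the group's range (Dixon's criterion), which is about the rate that chance gives. Among members, Pcdhb22 stood high at 1.59 on R6/2 replicate 3, and Pcdhb11 stood low at -2.13 on control replicate 3. Near them, the probe of transcript ENSMUST00000097612 stood high at 0.23 on control replicate 1, while the Taf7 probe A_52_P83959 at -3.12 and the AK082842 probe at -5.02 stood low on the same array. The classical cadherin gene Cdh10 stood high at 0.36 on R6/2 replicate 1. Control replicate 1 is the array with the smallest share of probes well above background. The Taf7 and AK082842 values lie below -2.78, the lowest level well above background on that array, so these probes were not detected there. The part of this array in the other values was not tested.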

How the results depend on the processing

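The number of members past the threshold was 0 under all 19 alternatives. Of 559 values of 30 named probes, 554 kept their direction and side of the threshold and 5 turned sign. Pcdhac1 (-0.20) became 0.18 without control replicate 1, 0.33 without R6/2 replicate 1 and 0.05 without R6/2 replicate 3 (-0.73 to 0.33 over all arrays left out), and the several-gene Pcdhac2 probe (-0.13) became 0.014 without control replicate 2 (-0.26 to 0.014) and 2.2e-05 with array weights. None of these was a call, and the cause was not tested. None of the 30 was past the threshold in the main fit, so keeping its side says little. Sizes moved more under normexp correction. Pcdha4 fell from 1.11 to 0.25, the single-gene Pcdha8 probe from 0.73 to 0.06, Pcdhb4 from 1.76 to 0.75 and Pcdhb1 from 0.54 to 0.06. Pcdhb10 went from 0.87 to 0.74 and the several-gene Pcdha8 probe from 0.61 to 0.55. The alpha median fell from 0.23 to 0.06. Members at an unadjusted p under 0.05 (2) numbered 1 among probes well above background on all 8 arrays, 8 with array weights (22.9% of members, 8.01% of all probes) and 5 with slide as a block, which leaves out R6/2 replicate 4 (14.3% and 5.82%), and 2 to 5 when each array was left out (5.71% to 14.3% of members, 5.82% to 7.40% of all probes; 4 without control replicate 1, 5 without control replicate 2). Pcdhb10 was among them in 19 of 19 and Pcdha4 in 16 of 18 alternatives that tested it. Pcdha4 was not among them under normexp correction or without control replicate 2. The alternatives reuse the same 8 arrays, so they are not independent of each other or of the main fit. Members without overlap (1) numbered 1 to 4 with arrays left out (2.86% to 11.4%, against 7.14% to 8.72% of all probes), by construction more easily reached. The gamma median (0.29) was -0.19 among probes well above background on all 8 arrays, where fewer probes are counted. With arrays left out the medians were 0.04 to 0.47 for alpha, -0.029 to 0.25 for beta and 0.04 to 0.41 for gamma. The beta median was -0.01 under median scaling. That scaling lowered the share of higher among unadjusted calls of the whole array from 56.6% to 38.9%, normexp correction to 42.6% and the all-array filter to 38.7%, and it moved the median of all probes from 0.05 to -0.05. The replicate block, fitted although the numbers do not pair the samples, gave 0 members past the threshold, 2 at an unadjusted p under 0.05 and medians of 0.23, 0.09 and 0.29. Signal over background limits the 9 measured members missed on at least 1 array.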
